A study of Mus musculus with 8 samples.

Results

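In mouse embryonic stem cells, some transcripts were lower after 4OHT (4-hydroxytamoxifen). Of these, 42 genes stayed near that lowered level 2 h after the kinase MEK had been blocked. They were chosen from measured values, out of 14476 named genes tested. Each was at least 1 lower on the log2 scale (2-fold) after 8 h and after 10 h of 4OHT than in untreated cells of the same replicate number. Each also differed by no more than 0.3 between cells given 4OHT for 8 h and then an inhibitor for 2 h and cells left in 4OHT for 10 h, again in both replicate numbers. All 42 were well above background on all 8 arrays, as were 12926 named genes in all. These differences are therefore descriptions of the choice and carry no test.

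Transcript levels were read on 8 Agilent arrays of 1 colour, with 2 arrays in each of 4 groups. Cells of the tested condition were given 250 nM 4OHT for 8 h followed by 1 µM PD0325901, a MEK inhibitor, for 2 h. The 3 groups without that inhibitor were untreated cells, cells after 8 h of 250 nM 4OHT and cells after 10 h of it. Every group, untreated cells included, grew with LIF, the cytokine used to hold these cells in self-renewal, and with 250 nM PD173074, which blocks FGF receptors. The labels name neither the cell line nor the protein on which 4OHT acts, and they do not say whether 4OHT was left in the medium with PD0325901. Levels are log2 signals relative to the 75th percentile of the array, so 0 is that percentile. An error written after ± is the standard error of a limma fit to all 8 arrays, and values of both arrays of a group are given as replicate 1 and replicate 2. The design text calls the 2 arrays of a group biological replicates without saying what was separate, and their small number limits the precision of every error and p-value.

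MEK phosphorylates and activates the kinase ERK, and ERK signalling moves embryonic stem cells out of naive pluripotency. Some of its transcriptional effects follow kinase activity closely, and others outlast it. Adding a MEK inhibitor to cells that have already responded separates transcripts that return within the time of inhibition from those that do not. The comparison addresses which of the lowered transcripts stayed near their lowered level over 2 h.

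The 10 stem cell markers checked, Pou5f1, Sox2 and Nanog among them, were well above background in all 4 groups, and their summed level was 841 to 971 times the 75th percentile after PD0325901 and 971 to 1046 times in the other groups. None of the markers of 5 cell types was among the 42 genes. Of 8 fibroblast markers 4 were tested (Col3a1, Dcn, Lum and Postn were not), and 3 were above background after PD0325901, against 4 in untreated cells, 3 at 8 h and 3 at 10 h. Their summed level was 13.7 to 25.2 after PD0325901, against 2.06 to 3.42 in untreated cells, 17.6 to 37.2 at 8 h and 19.0 to 41.0 at 10 h. The sum of 5 of 6 trophoblast markers (all but Elf5) was 3.73 to 4.92 after PD0325901, against 0.340 to 0.510 in untreated cells, 5.32 to 7.34 at 8 h and 5.62 to 9.68 at 10 h. The sum of 7 of 8 primitive endoderm markers (all but Pdgfra) was 43.4 to 86.1 after PD0325901, against 34.8 to 63.9 in untreated cells, 27.2 to 57.9 at 8 h and 29.6 to 59.4 at 10 h, higher in replicate 1 each time. The sum of 4 of 5 neural markers (all but Olig2) was 3.81 to 4.17 after PD0325901, 2.29 to 2.43 in untreated cells, 4.50 to 4.63 at 8 h and 4.20 to 4.48 at 10 h. The part of these cells in the values below was not tested, and fewer cells of a type and less RNA per cell cannot be told apart in RNA from whole cultures.

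Staying within 0.3 of 4OHT 10h was uncommon among the lowered genes. Of the named genes above background on all arrays, 426 met the condition on both 4OHT times, and 42 of them (9.86%) then stayed within 0.3 of 4OHT 10h after PD0325901. Among all 12926 such genes 63.0% stayed within 0.3 in both replicates. These shares are not like for like, because the 426 were chosen on the 4OHT 10h arrays that enter this difference. The 426 were also dimmer at 10 h, with a median level of -1.75 against 1.14 for the 12926. Their replicates differed more there (median absolute difference 0.27, against 0.12). The part of the choice and of this spread in the shares was not tested. A further 116 of the 426 were at least 1 higher after PD0325901 in both replicates, 207 were over 0.3 higher in both without reaching 1 in both, and 1 was over 0.3 lower in both. The remaining 60 were within 0.3 in 1 replicate only or moved in opposite directions. The values formed a continuum with no gap at the limit, as the plot of both replicates shows. The median difference between PD0325901 and 4OHT 10h was 0.13 for the 42 genes, 0.73 for all 426 and -0.04 for all genes tested. Small rises thus remained within the limit. By group means 33 of the 42 were above 4OHT 10h and 9 below. Of the 426, 412 were above and 14 below, and of all genes tested 9729 were above and 12941 below. Most lowered genes were nevertheless still below untreated cells after PD0325901. By group means this held for 404 of the 426 (median -0.94) and for 94 of the 116 that rose by at least 1 (median -0.45). Among all 12926 genes it held for 7298 (median -0.05).

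**Figure D1:**
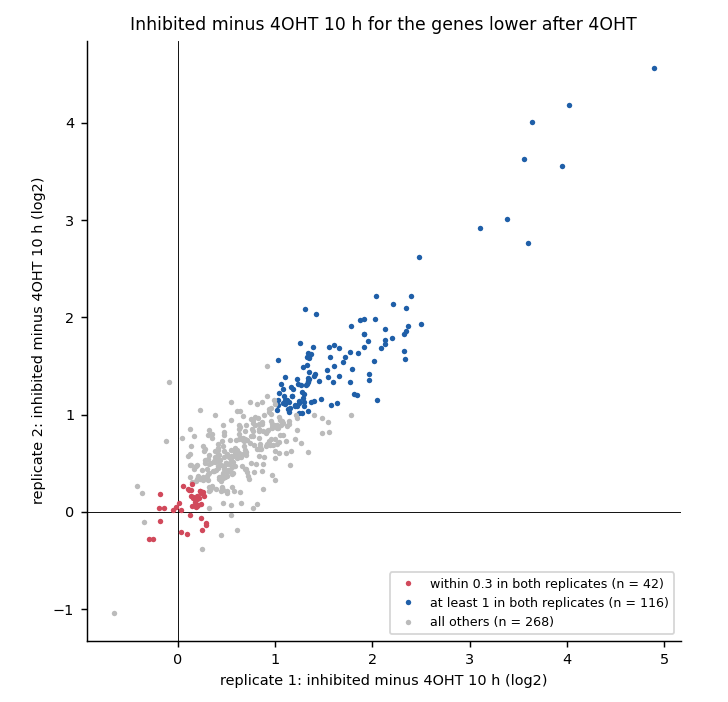
Difference on the log2 scale between cells given PD0325901 and cells at 4OHT 10h, replicate 1 on the horizontal axis and replicate 2 on the vertical axis, for the 426 named genes lower after 4OHT. Each point is 1 gene. The 42 genes within 0.3 in both replicates (red) lie at the lower end of a cloud that runs without a break to the 116 genes at least 1 higher in both (blue).

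Because the choice used both replicates, it was also made in 1 replicate and read in the other. In replicate 1 alone 108 genes met the whole rule, and in replicate 2 the difference between PD0325901 and 4OHT 10h was within 0.3 for 66 of them (61.1%). It was within 0.3 for 39 (9.11%) of the 428 genes that were lowered in replicate 1 but not within 0.3 there. Chosen in replicate 2, 120 genes met the rule, and 78 (65.0%) were within 0.3 in replicate 1, against 60 (13.1%) of the other 458. The medians read in the unused replicate were 0.20 and 0.18 for the genes that met the rule, against 0.79 and 0.80 for the others. Over all 12926 named genes above background 71.4% were within 0.3 in replicate 2 and 72.8% in replicate 1, so the chosen genes lay below the share of genes in general and above that of the other lowered genes. The whole rule held in the other replicate for 42 of 108 (38.9%) and 42 of 120 (35%), which are the 42 genes themselves by definition. Over all 12926 genes it held for 0.93% in replicate 2 and 0.84% in replicate 1. It held for 6.54% of the other 428 lowered genes and 6.99% of the other 458.

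**Figure D2:**
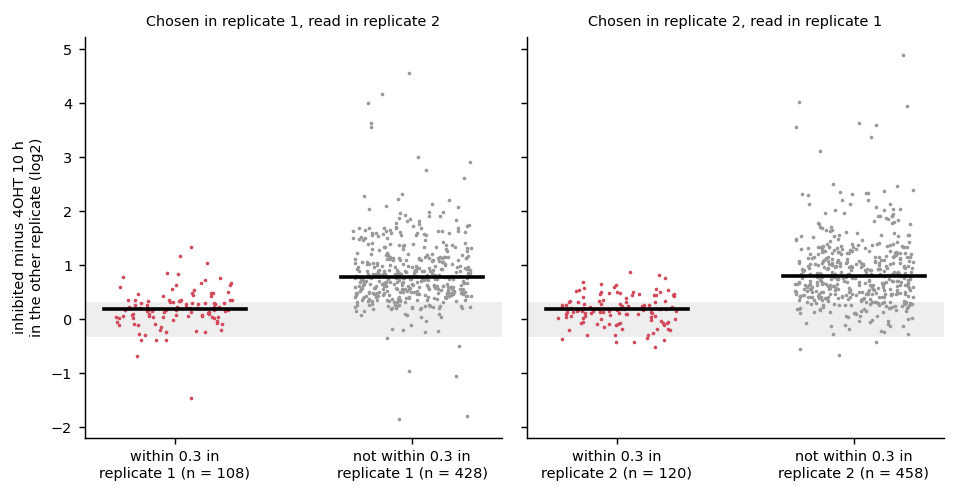
Difference on the log2 scale between PD0325901 and 4OHT 10h in the replicate that was not used for the choice. Each point is 1 gene lower after 4OHT in the choosing replicate, black lines are medians and the grey band spans -0.3 to 0.3. The genes within 0.3 in the choosing replicate (red) have medians of 0.20 and 0.18, and the others (grey) 0.79 and 0.80.

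The 42 genes differed widely in abundance. Their untreated level ran from -2.35 for Slit3 to 5.42 for Jam2 with a median of -0.28, and 20 lay above the 75th percentile of the array. The median untreated level of all 12926 named genes above background on all arrays was 1.17. At 4OHT 10h the genes stood at 14.8% to 47.1% of their untreated signal with a median of 36.1%, and after PD0325901 at 16.1% to 53.4% with a median of 39.1%. For 41 of the 42 genes both untreated arrays were above all 6 others, against 21.9% of all genes tested, a separation that the choice itself brings about. The exception was Khdc3. In the limma fit 8.8% of all genes were called lower and 7.06% higher after PD0325901 than in untreated cells, and 11.5% lower and 10.3% higher at 8 h. Scaling on the array median moved the median of all genes at 10 h against untreated cells to 0.15 from -0.05, and normexp background correction to 0.01. All 42 genes stayed below untreated cells at 10 h under each scaling, with the smallest difference -1.09 as reported, -0.89 on the array median and -0.41 after normexp.

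**Figure D3:**
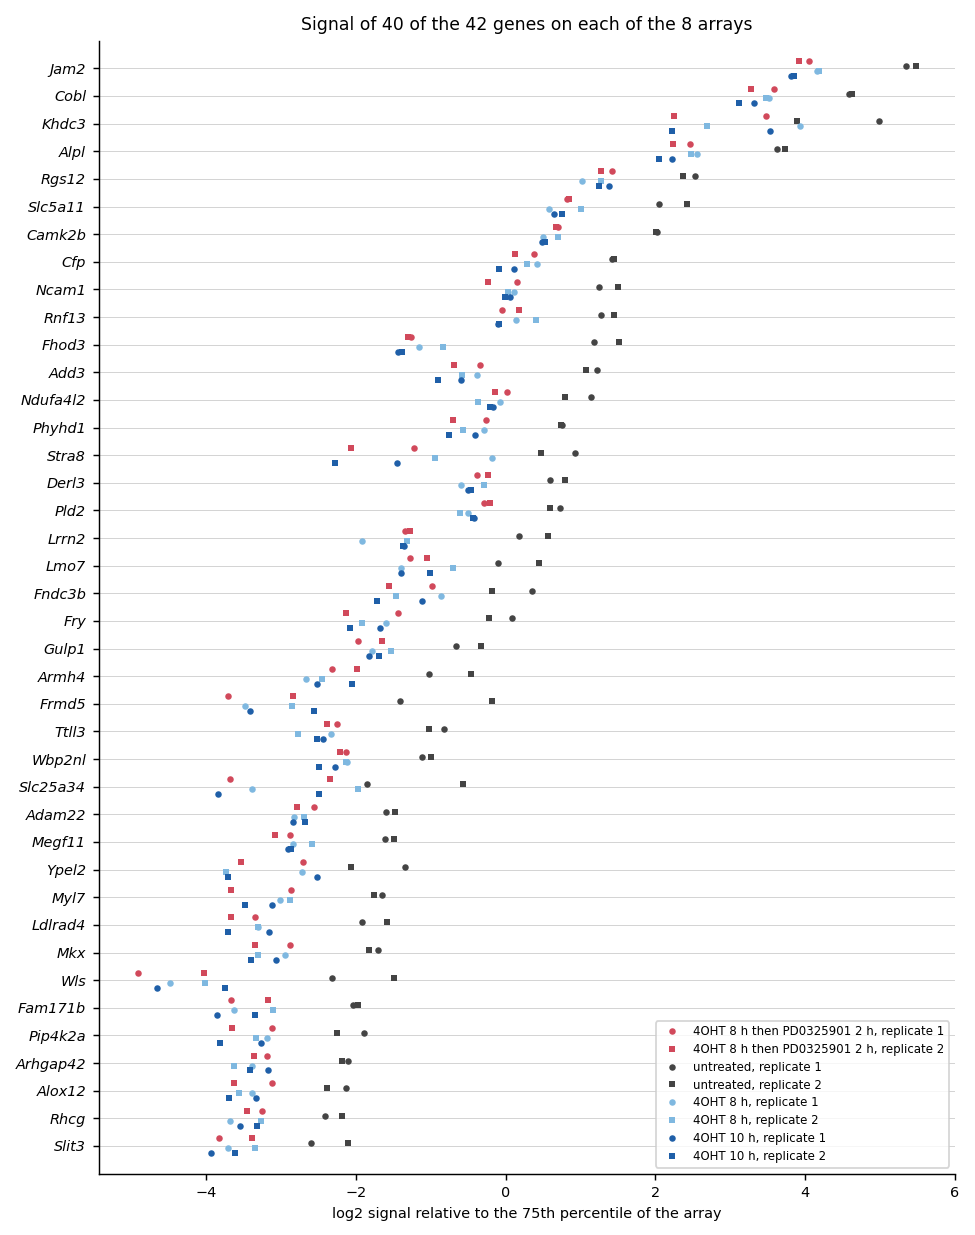
Log2 signal relative to the 75th percentile of the array for 40 of the 42 genes, ordered by untreated level, 1 symbol for each of the 8 arrays (circles replicate 1, squares replicate 2). Untreated arrays (dark grey) lie to the right of the others for every gene but Khdc3, and the signals after PD0325901 (red) lie beside those at 4OHT 10h (dark blue).

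The genes are described below by what their products do, a grouping made with their values known. The first group holds 5 genes of embryonic stem cells and germ cells. Jam2, which encodes a junctional adhesion molecule, had log2 signals of 4.05 and 3.93 after PD0325901, and 5.34 and 5.49 in untreated cells, 4.16 and 4.19 at 8 h and 3.81 and 3.85 at 10 h. The inhibited arrays lay just above those at 10 h and below both at 8 h, and the difference from 4OHT 10h was 0.16 ± 0.08. Alpl encodes the tissue-nonspecific alkaline phosphatase whose activity is the classical stain for these cells. Its signals were 2.46 and 2.24 after PD0325901, and 3.63 and 3.74 in untreated cells, 2.55 and 2.47 at 8 h and 2.22 and 2.05 at 10 h. All 6 arrays with 4OHT were lower than both untreated arrays by more than the spread within any group.

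Khdc3 encodes a KH domain protein of oocytes, early embryos and stem cells. It stood at 3.48 and 2.25 after PD0325901, and at 4.99 and 3.90 in untreated cells, 3.94 and 2.70 at 8 h and 3.53 and 2.23 at 10 h. Replicate 1 was over 1 higher than replicate 2 in every group, so the groups overlapped although 10 h was below untreated cells by a similar amount in each replicate (-1.46 and -1.67, mean -1.56 ± 0.72). Stra8, a retinoic acid induced gene needed for entry into meiosis, had signals of -1.22 and -2.06 after PD0325901, and 0.92 and 0.47 in untreated cells, -0.19 and -0.95 at 8 h and -1.45 and -2.28 at 10 h. Among the 42 genes it had the largest difference between the 4OHT times (-1.30 ± 0.44). For Wbp2nl, a sperm protein gene, the difference of 10 h from untreated cells was -1.33 ± 0.10.

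Promoter windows of 300 bases from RefSeq (build GRCm38.p6, 250 bases before to 50 after an annotated start) were matched by symbol for 31 of the 42 genes, 41 windows in all. Of the stem cell and germ cell genes, windows of Alpl (1 of 2, chr4:137796335-137796634, minus strand), Khdc3 (chr9:73102148-73102447, plus strand) and Stra8 (chr6:34920698-34920997, plus strand) are printed as examples of members whose windows held one of the commoner motifs searched. Capitals mark matches on either strand to GGGCGGGG, the GC box, or to CCAAT, whose reverse reads ATTGG.
Alpl: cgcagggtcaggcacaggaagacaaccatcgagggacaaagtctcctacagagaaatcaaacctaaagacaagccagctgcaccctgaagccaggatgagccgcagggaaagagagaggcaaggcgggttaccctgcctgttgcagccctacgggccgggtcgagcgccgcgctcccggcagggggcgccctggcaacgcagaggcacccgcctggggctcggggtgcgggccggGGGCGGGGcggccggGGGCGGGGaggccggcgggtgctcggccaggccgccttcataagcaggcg
Khdc3: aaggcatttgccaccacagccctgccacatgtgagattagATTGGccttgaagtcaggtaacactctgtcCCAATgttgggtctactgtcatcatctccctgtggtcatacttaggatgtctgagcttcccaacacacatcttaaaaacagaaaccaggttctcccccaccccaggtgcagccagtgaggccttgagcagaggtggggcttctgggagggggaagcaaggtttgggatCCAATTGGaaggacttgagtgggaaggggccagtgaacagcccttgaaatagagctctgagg
Stra8: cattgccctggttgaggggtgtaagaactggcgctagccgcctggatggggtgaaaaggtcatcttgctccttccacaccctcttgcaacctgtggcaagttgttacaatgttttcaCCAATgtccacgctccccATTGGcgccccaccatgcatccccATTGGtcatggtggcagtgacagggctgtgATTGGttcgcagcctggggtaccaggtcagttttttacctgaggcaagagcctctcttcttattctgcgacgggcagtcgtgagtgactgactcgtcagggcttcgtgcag
The Alpl window held GGGCGGGG, with 70.0% G and C and 26 CpG dinucleotides, while the other Alpl window (chr4:137766426-137766725, minus strand) had 54.3% and 4 CpG and held TATAAA. Those of Khdc3 (52.7%, 0 CpG) and Stra8 (55.7%, 10 CpG) held CCAAT on both strands, overlapping each other at 1 place in Khdc3.

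Over the 41 windows the median G and C content was 59.7%, against 60.0% for the 14579 windows of the named genes tested, and the median number of CpG dinucleotides was 12, against 19. CCAAT was found in 13 of the 41 windows (31.7%), against 37.7% of those of tested genes and 37.4% of all in the RefSeq table. GGGCGGGG was found in 16 (39.0%), against 30.3% and 17.6%. Some genes have several windows, and over the 23 members with 1 window CCAAT was in 43.5%, on the other side of the share of tested genes, GGGCGGGG in 39.1%, and the median number of CpG was 16. The TATA sequence TATAAA was in 2 (4.88%, against 8.38% of those of tested genes), the E-box CACGTG, its own reverse, in 2 (4.88%, against 9.62%), the ETS sequence CCGGAAGT in 0 (against 7.01%) and the octamer ATGCAAAT in 0 (against 1.36%). In the 119 windows of the genes that were at least 1 higher after PD0325901, CCAAT was in 44.5%, GGGCGGGG in 34.5% and CCGGAAGT in 0. The counts describe these letters in these windows, searched on both strands.

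The next group held 8 genes of the cytoskeleton, with log2 differences of 10 h from untreated cells between -2.76 and -1.38. Fhod3, a formin that assembles actin filaments, had signals of -1.26 and -1.31 after PD0325901, and 1.18 and 1.51 in untreated cells, -1.16 and -0.84 at 8 h and -1.44 and -1.38 at 10 h. Its level at 10 h was 6.75-fold lower than in untreated cells, the largest fold among the 42 genes. Add3, the gene of the gamma subunit of adducin, which caps actin and joins it to spectrin, stood at -0.34 and -0.69 after PD0325901, and at 1.22 and 1.08 in untreated cells, -0.38 and -0.59 at 8 h and -0.60 and -0.90 at 10 h. In both genes the inhibited arrays fell within or beside the range of the 4OHT arrays and far from the untreated ones.

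Cobl encodes an actin nucleator and was abundant, with signals of 3.58 and 3.28 after PD0325901, and 4.59 and 4.62 in untreated cells, 3.52 and 3.48 at 8 h and 3.31 and 3.12 at 10 h. Frmd5, a FERM domain gene, was dimmer and differed between replicates, with -3.71 and -2.84 after PD0325901, and -1.41 and -0.18 in untreated cells, -3.48 and -2.85 at 8 h and -3.41 and -2.56 at 10 h. It was lower after PD0325901 than at 10 h in both replicates, with a mean difference of -0.29 ± 0.55, just inside the limit. Fry, Myl7 (an atrial myosin light chain), Ttll3 (a tubulin glycylase) and Lmo7 had differences of -1.80 (Fry) to -1.38 (Lmo7) at 10 h. After PD0325901 they differed from 4OHT 10h by 0.03 to 0.16 on average. All but Ttll3 were higher in replicate 1 and lower in replicate 2, with 0.25 and -0.19 for Myl7.

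Among regulators of small GTPases and G proteins, values are given for Rgs12 and Arhgap42. Rgs12, which shortens G protein signalling, had signals of 1.42 and 1.28 after PD0325901, and 2.54 and 2.38 in untreated cells, 1.03 and 1.27 at 8 h and 1.39 and 1.25 at 10 h. The inhibited arrays were 0.04 and 0.02 above the arrays at 10 h of the same replicate. Arhgap42, the gene of a GTPase-activating protein, had a difference of -1.14 ± 0.13 at 10 h.

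The signalling genes, 7 in number, included Wls, which encodes the carrier that WNT proteins need for secretion. Its signals were -4.91 and -4.02 after PD0325901, and -2.31 and -1.49 in untreated cells, -4.49 and -4.01 at 8 h and -4.66 and -3.75 at 10 h. Both untreated arrays were above the other 6. Wls left the set on the array median, after quantile normalization and after normexp, as did Frmd5, Arhgap42, Rhcg, Wbp2nl, Pip4k2a and Ndufa4l2. Camk2b, a calcium and calmodulin dependent kinase gene, was brighter, and its replicates lay close together in every group but 8 h. Its signals were 0.70 and 0.68 after PD0325901 and 2.02 and 2.01 in untreated cells. At 8 h they were 0.50 and 0.70, and at 10 h 0.48 and 0.53. Ldlrad4, whose product restrains TGF-beta signalling, had a difference of -1.68 ± 0.22 at 10 h and Slit3, a ligand of ROBO receptors, one of -1.42 ± 0.25. Pld2, a phospholipase D gene, showed the smallest difference at 10 h (-1.09 ± 0.08), and the lipid kinase gene Pip4k2a and the engulfment adaptor gene Gulp1 had differences of -1.47 ± 0.26 and -1.27 ± 0.17.

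Cell surface adhesion genes were 4 in number, Ncam1, Lrrn2, Adam22 and Megf11. After PD0325901 they differed from 4OHT 10h by -0.09 to 0.09 on average. All but Lrrn2 were higher in replicate 1 and lower in replicate 2. The values were 0.29 and -0.11 for Adam22, 0.09 and -0.23 for Ncam1 and 0.03 and -0.21 for Megf11. Lrrn2, a leucine-rich repeat gene, stood at -1.34 and -1.27 after PD0325901, and at 0.18 and 0.57 in untreated cells, -1.92 and -1.31 at 8 h and -1.36 and -1.37 at 10 h. The neural cell adhesion molecule gene Ncam1 had a difference of -1.34 ± 0.15 between 10 h and untreated cells and Adam22, a receptor of LGI proteins, one of -1.22 ± 0.12.

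Membrane transport genes are given for 3. Slc5a11, a sodium and inositol cotransporter gene, had signals of 0.82 and 0.85 after PD0325901, and 2.05 and 2.43 in untreated cells, 0.59 and 1.01 at 8 h and 0.65 and 0.75 at 10 h. The mitochondrial carrier gene Slc25a34 differed by over 1 between replicates, with -3.68 and -2.34 after PD0325901, and -1.85 and -0.57 in untreated cells, -3.39 and -1.97 at 8 h and -3.84 and -2.49 at 10 h. The ammonia transporter gene Rhcg had a difference of -1.14 ± 0.18 at 10 h. The means of these 3 genes were higher after PD0325901 than at 10 h, by 0.08 to 0.15, though Rhcg was lower in replicate 2.

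Genes of the endoplasmic reticulum, of mitochondria and of oxygenases were 5: Rnf13 (a membrane ubiquitin ligase), Derl3 (degradation from the endoplasmic reticulum), Ndufa4l2, Phyhd1 and Alox12 (the 12-lipoxygenase). Their differences from untreated cells at 10 h were -1.45 to -1.16, and they were 0.11 to 0.17 higher after PD0325901 than at 10 h. The other 6 genes were Mkx (a homeobox gene of tendon development), Cfp (properdin of the complement system), Fam171b, Armh4, Fndc3b and Ypel2. Their differences were -1.60 (Fam171b) to -1.41 (Ypel2). Replicates differed by over 1 in at least 1 group for 4 of the 42 genes, Frmd5, Slc25a34, Khdc3 and Ypel2 (9.52%), against 2.89% of the 12926 named genes above background on all arrays.

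**Figure D4:**
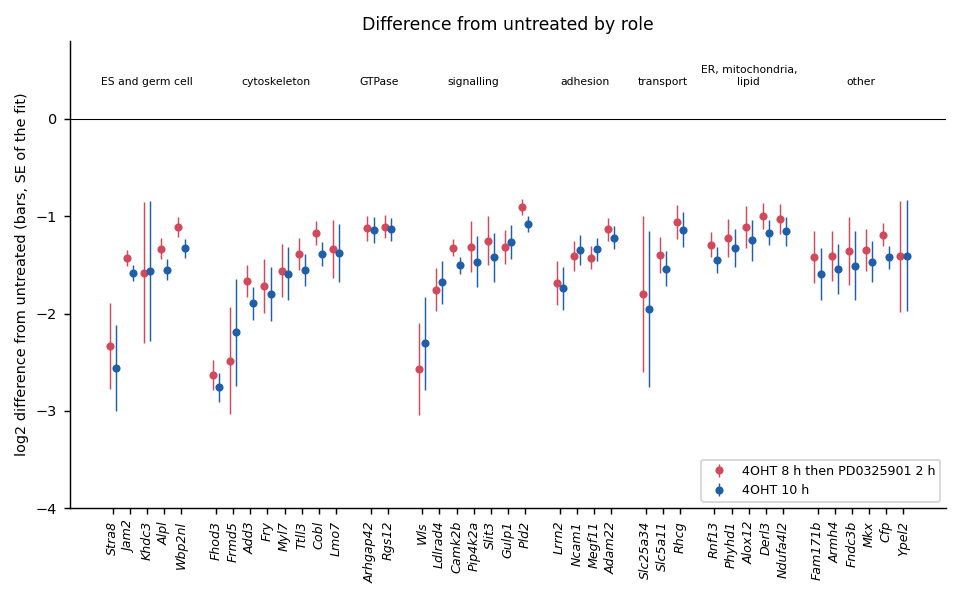
Log2 difference from untreated cells after 8 h of 4OHT and 2 h of PD0325901 (red) and after 10 h of 4OHT (blue) for 40 of the 42 genes, grouped by role; points are fitted differences of group means and bars the standard error of the fit (n = 2 arrays a group). The 2 points of each gene lie close together, and all lie below -0.9. Long bars mark genes whose replicates differ in level.

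The rule set no direct limit on the change between the 4OHT times or between PD0325901 and 4OHT 8h, the moment at which the inhibitor was added, although it used the arrays of all these groups. At 4OHT 10h against 4OHT 8h, limma called 0 of the 42 genes higher and 0 lower (adjusted p from 0.604 to 1.00), against a background of 0% called in each direction, so that this count says nothing particular of the 42. At an unadjusted p under 0.05, 7 were lower and 0 higher, against 3.46% and 3.15% of all genes. The 42 genes ran from -1.30 ± 0.44 (Stra8) to 0.28 ± 0.26 (Armh4) with a median of -0.12 where the median of all genes was 0.00, and 30 were below 0. This was not particular to the 42. All 426 lowered genes had a median of -0.14 with 307 below 0. The 116 that rose by at least 1 had a median of -0.12 with 74 below 0. Among the 42, the genes with the smallest p in this comparison were Jam2 (-0.35 ± 0.08) and Alpl (-0.38 ± 0.11), with adjusted p of 0.604 and 0.639.

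**Figure D5:**
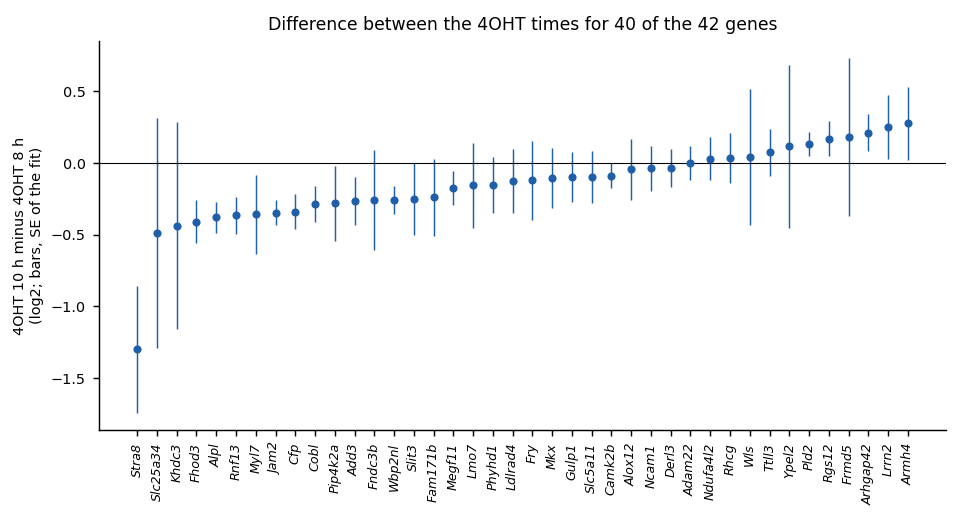
Log2 difference between 4OHT 10h and 4OHT 8h for 40 of the 42 genes, ordered by size; points are differences of group means and bars the standard error of the limma fit (n = 2 arrays a group). Stra8 lies lowest at -1.30 and Armh4 highest at 0.28, and 29 of the 40 lie below 0.

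The rule holds cells given PD0325901 within 0.3 of 4OHT 10h in each replicate. Their difference from 4OHT 8h thus lies within 0.3 of the difference between the 4OHT times. For the 42 genes this difference from 4OHT 8h ran from -1.07 (Stra8) to 0.41 (Armh4), with a median of -0.06. The counts below therefore describe the chosen genes and support nothing about them. In the limma fit 0 of the 42 genes were called higher and 0 lower, where 3.41% of all genes were called higher and 3.11% lower. At an unadjusted p under 0.05 1 gene was higher (Pld2, 0.31 ± 0.08, adjusted p = 0.0914) and 1 lower, where 10.2% of all genes were higher and 11.8% lower. With the replicate number as a block, which takes out level differences between replicates, 3 of the 42 were called lower (6.63% of all genes) and 0 higher (7.4% of all genes). These were Stra8 (-1.07), Khdc3 (-0.45) and Slc25a34 (-0.33), whose differences of 10 h from 8 h were -1.30, -0.44 and -0.49. Both comparisons share the 4OHT 8h arrays. A p that misses the threshold does not show that a level was the same.

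Other probes of the same genes gave a partial second reading. For 16 of the 42 genes the array held another probe, 19 in all, and 8 probes of 7 genes were well above background on every array. All 8 were lower at both 4OHT times in both replicates, 3 by at least 1 throughout, and 1, of Lmo7, met the whole rule. The second Jam2 probe had a difference of -1.75 at 10 h but was 0.50 higher after PD0325901 than at 10 h, outside the limit. That of Frmd5 was 0.31 higher after PD0325901 where the chosen probe was lower, and a second one of Ncam1 differed by -0.40. The second Slc5a11 probe had differences from untreated cells at 10 h of -1.20 and -0.43. After PD0325901 it differed from 10 h by 0.23 and -0.69.

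Of the gene lists written for stem cell and signalling biology, 4 held a member: Jam2 among 29 naive pluripotency genes tested, Wls among 22 WNT targets and effectors, Ncam1 among 14 neural progenitor genes and Stra8 among 15 genes of retinoic acid metabolism. In the limma fit for 4OHT 10h against untreated cells 14.8% of all genes were called lower and 13.1% higher, and for PD0325901 against 4OHT 10h 2.88% lower and 3.25% higher. Of the other 28 naive pluripotency genes 13 were called lower and 6 higher at 10 h, with a median of -0.46 against -0.05 for all genes. After PD0325901 5 of them were called lower and 7 higher than at 4OHT 10h, with a median of 0.12 against -0.04. Nanog, the naive pluripotency factor, was among those 7, and it rose from its level at 10 h but remained below untreated cells. It had signals of 3.54 and 3.19 after PD0325901, 1.93 and 1.48 at 10 h and 4.78 and 4.83 in untreated cells. Its rise from 10 h was 1.66 ± 0.19 (limma, adjusted p = 0.00996). Jam2 left the set after quantile normalization, and its second probe was 0.42 and 0.58 higher after PD0325901 than at 10 h.

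The other genes of the smaller lists went both ways. Of the other 21 WNT genes 4 were called lower and 7 higher at 10 h, and 3 lower and 3 higher after PD0325901 against 4OHT 10h. Of the other 13 neural progenitor genes 5 were called lower and 3 higher at 10 h, and 1 lower and 2 higher after PD0325901. Of the other 14 retinoic acid genes 4 were called lower and 4 higher at 10 h, and 2 lower and 3 higher after PD0325901. The other lists held no member, and members were 42 of the 12926 named genes above background.

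The limits of the rule had neighbours close on both sides. The smallest of the 4 differences from untreated cells was -1.01 for each of Cfp, Wbp2nl and Ndufa4l2, just inside, and -0.99, -0.99 and -0.97 for Serpinb6d, Mapt and Evc, just outside. The largest absolute difference from 4OHT 10h was 0.30 for Frmd5 and 0.29 for Wbp2nl and Adam22, just inside, and 0.31, 0.32 and 0.32 for A2m, Tbc1d16 and Cst3, just outside. These 6 genes outside the set had values like those of the members beside them.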

How the data were processed

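RNA was hybridised to 8 arrays of Agilent design 028005. The processed signal is an intensity made with Feature Extraction 11.0.1.1, per the file headers. It comes from the green channel, while the labels name the dye Cy5. The deposited value table holds the same intensity to within 0.497%. Marks of 0 or 1 for background and outliers are also from the deposited scanner files. Control spots (3671 of 62976) were left out, and 169 to 249 outlier spots per array on that array. Replicate 1 had more spots well above background per array (36889 to 37789) than replicate 2 (30218 to 31433).

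Symbols came from a RefSeq table of assembly GRCm38.p6 matched by unversioned accession (27656 of 55681 probes with 1 symbol). The log2 processed signal minus the 75th percentile over non-control spots was averaged over the spots of a probe. The filter kept 30305 probes that exceeded background in both replicates of some group, and the brightest kept probe by mean stood for its gene (22670 genes and unnamed features). limma 3.58.1 in R 4.3.3 fitted a mean per group to all 8 arrays, with two-sided moderated tests and Benjamini-Hochberg adjustment over all genes at 0.05. The code was tested on simulated data. Python 3.11.15, numpy 2.4.6, pandas 2.3.3 and matplotlib 3.10.9 did the rest.

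Groups share replicate numbers 1 and 2. Same-numbered arrays deviated together from their group means (correlation 0.286 to 0.355 over the 6 pairs of groups), so the numbers were taken to pair the samples. Errors after ± come from the fit without the number, so they include level differences between replicates. They can exceed the spread of differences taken within replicates. For Frmd5, PD0325901 minus 4OHT 10h was -0.30 and -0.28 in replicates 1 and 2, beside an error of 0.55. A fit with the number as a block is an alternative. Others are the scaling, background correction, filter, prior, arrays left out and limits of the rule. The members, the gene lists and the roles were chosen with earlier results of these data known. Genes were named by a fixed rule (members on a list, the 12 with the largest difference at 10 h, up to 3 per gene family, the 6 with the smallest p each way between the 4OHT times, the 3 nearest each limit on either side), and other members were named after their values were seen. Values of 2 of the 42 members are not reported here, though counts, medians and ranges over the set include them.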

Additional observations from a re-analysis of the deposited data

How the results depend on the processing

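The number of genes that meet the rule depends on where the limits lie. It was 42 as reported and 20 on the array median, of which 15 were shared. It was 20 with a limit of 0.2, 98 with 0.5, 100 with a minimum difference of 0.8, 7 with 1.5 and 97 on group means. In 1 replicate alone it was 108 to 120. Quantile normalization gave 36 (32 shared), normexp 29 (12 shared), the authors' deposited values 42 (42 shared), and no background requirement 45. The members lost numbered 27 on the array median, 10 after quantile normalization and 30 after normexp. Alpl and Cobl were lost on the array median and after quantile normalization, and Khdc3 and Stra8 on the array median. Between 4OHT 10h and 4OHT 8h 0 of the 42 genes were called in either direction by limma under every alternative run, arrays left out included, where 0 of all genes were called as reported and with the replicate block. Between PD0325901 and 4OHT 8h the replicate block called 3 lower where the fit without it called 0, and it changed no other count of members called. The difference from untreated cells at 10 h kept its sign for all 42 genes under each scaling. It moved by more than the spread between replicates for 31 on the array median, 13 after quantile normalization and 34 after normexp. The array median moves every gene by the same amount, as from -2.76 to -2.56 for Fhod3 and from -1.09 to -0.89 for Pld2. The cause of the movements after quantile normalization and normexp was not tested. The 30 members lost under normexp had a median untreated level of -1.18, against 2.13 for the 12 kept.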

Other observations

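Zic5, a zinc finger gene of the neural plate, was the 1 gene of the 426 that was over 0.3 lower after PD0325901 than at 4OHT 10h in both replicates. It had signals of -4.50 and -3.80 after PD0325901, against -3.85 and -2.76 at 10 h, a difference of -0.85 ± 0.49 that limma did not call (adjusted p = 0.397).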
